A study of Mus musculus with 18 samples.

Results

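The cells described here are thymocytes that were low for the CD4 and CD8A surface antibodies and held RNA of the transcription factors Sox13 or Maf. They number 97 of the 1331 cells measured, and 97 of the 551 cells under the limits for both antibodies (CD4-CD8-). Members were selected on measured antibody and RNA values. A cell was chosen where its CD4 value was at most 6.3 and its CD8A value at most 6.1, each as log2 of 1 plus the antibody count scaled to the median antibody total of a cell. It also had at most 2 RNA molecules (UMIs, unique molecular identifiers) summed over S100a6, S100a4 and Ly6c1, at most 2 summed over Cpa3, Ctla2a, Alox5ap and Gem, and at least 1 of Sox13 plus Maf. The other CD4-CD8- cells fall into 128 with 0 UMIs of Sox13 and Maf and both sums at most 2 (Sox13 Maf-zero cells), 176 above the limit for the Cpa3 sum only (Cpa3-type), 46 above the limit for the S100a6 sum only (S100-type) and 104 above both.

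The study profiled thymocytes from bone marrow chimeras in which 30% of the marrow carried the transgenic T cell receptor OT1 or OT2 and 70% was competitor marrow. OT1 recognises an ovalbumin peptide on MHC class I and OT2 one on MHC class II. The sort took CD45.1.2 donor cells with low CD44 that bound antibodies to Valpha2 and Vbeta5, so the sort required both transgenic chains. RNA, antibody tags and receptor sequences were read in 1 lane with the 10x 5' v2 chemistry, and hashtags tied each cell to its mouse. There were 6 mice, 1 for each receptor and host, all labelled female, 14 weeks of age and 6 weeks after transplantation. PosSelected hosts were wild-type C57BL/6 mice. NegSelected hosts were RIPmOVA mice, in which the insulin promoter drives ovalbumin. The OT1 NoSelection host lacked B2m, which MHC class I needs. The OT2 NoSelection host is labelled as lacking MHC class II in its treatment and B2m in a comment, and the treatment was followed. With 1 mouse per receptor and host, a difference between 2 mice has no replicate check.

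RNA UMIs per mouse ran from 525843 to 1867488, and no cell barcode occurred in 2 mice. The chosen cells had a median of 4378 RNA UMIs (745 to 24221), close to the 4468 of Sox13 Maf-zero cells and below the 5213.5 of Cpa3-type cells. Thymocytes with both CD4 and CD8 (double-positive cells) had a median of 2445. Mitochondrial genes held 1.46% of the RNA UMIs of the chosen cells and 1.40% of those of all cells.

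Gamma delta T cells carry a receptor of a gamma and a delta chain in place of alpha and beta chains, and most arise from CD4-CD8- thymocytes. Sox13, an HMG-box factor, and Maf, a basic leucine zipper factor, are both required for the gamma delta T cells that make interleukin 17, as is the kinase Blk. Mice with an alpha beta receptor transgene that is expressed early hold CD4-CD8- thymocytes that share part of this programme while carrying the transgenic receptor.

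The antibodies are read through 15-base tags. The pair that drew the limits on CD4 and CD8A, those that read the receptor itself with the isotype control from hamster, and 2 that are described among the results are shown 5′ to 3′ as the deposited feature list gives them.
CD4: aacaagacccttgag
CD8A: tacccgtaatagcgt
TCRGD (gamma delta receptor): aacccaaatagctga
TCRB (beta chain): tcctatgggactcag
Isotype.Hamster.IgG (control): cctgtcattaagact
CD5: cagctcagtgtgttg
ITB7 (integrin beta 7): tccttggatgtaccg

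The label of these cells as gamma delta-like was checked on receptor RNA and on the receptor antibody, and the 2 differ. At least 1 UMI of a gamma or delta constant gene (Trdc, Trgc1, Trgc2 or Trgc4) was found in 92 of 97 cells (94.8%, exact Clopper-Pearson interval 88.4 to 98.3%, counting error only, as for all intervals given here). The same share was 101 of 128 in Sox13 Maf-zero cells, 175 of 176 in Cpa3-type cells, 13.4% in double-positive cells and 10.3% in CD4+CD8- cells, at the lower depth given above for double-positive cells. It was 136 of 283 (48.1%, 42.1 to 54.0%) in CD4-CD8+ cells, so such RNA was also found in many cells with a coreceptor. Trac, the alpha constant gene, had a UMI in 21 of 61 OT1 and 34 of 36 OT2 Sox13 Maf cells, and 52 of the 97 cells had both kinds of RNA. The TCRGD antibody had a median of 4.03 on the scaled log2 scale, against 4.08 in double-positive, 3.91 in Sox13 Maf-zero and 3.78 in Cpa3-type cells. The hamster isotype control had a median of 1.42. The antibody to the gamma delta receptor therefore did not set the cells apart from double-positive thymocytes, which have little gamma or delta constant RNA. TCRB stood at 4.35, above the 3.25 of double-positive cells and below the 5.76 of CD4+CD8- cells, and TCRVA2, the antibody to the transgenic alpha chain, at 5.86 against 4.52 in double-positive cells. The cells are therefore called Sox13 Maf cells here and not gamma delta T cells.

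Markers of other cell types were low. Of 9 myeloid genes 7 were at 0 UMIs, among them Lyz2, Itgam, Fcer1g, Tyrobp and Cd14, and their summed level was 0 to 17.8 CPM per mouse (counts per 1000000 RNA UMIs). Of the B cell genes Cd79a, Ms4a1 and Igkc were at 0, and the summed level of 244 to 537 CPM came mostly from Ighm. Of 8 natural killer and innate lymphoid genes 6 were at 0, and the others included Gata3, which thymocytes also express. Foxp3, the factor of regulatory T cells, was at 0.

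The cells were found in all 6 mice. In the OT1 mice they numbered 31 of 306 cells (10.1%, 6.99 to 14.1%) in NoSelection, 15 of 282 (5.32%, 3.01 to 8.62%) in PosSelected and 15 of 204 (7.35%, 4.17 to 11.8%) in NegSelected. In the OT2 mice they numbered 19 of 108 (17.6%, 10.9 to 26.1%), 8 of 254 (3.15%, 1.37 to 6.11%) and 9 of 177 (5.08%, 2.35 to 9.43%) in the same order of hosts. The NoSelection mouse had the highest share under both receptors. PosSelected minus NoSelection was -4.81 points in OT1 (Newcombe interval -9.22 to -0.44) and -14.4 points in OT2 (-22.8 to -7.73). NegSelected minus NoSelection was -2.78 points in OT1 (-7.60 to 2.51), an interval that includes 0, and -12.5 points in OT2 (-21.1 to -5.10). NegSelected minus PosSelected was 2.03 points (-2.30 to 6.92) in OT1 and 1.94 points (-1.85 to 6.50) in OT2, within counting error in both. A share of all cells falls where other cells are more abundant, and the 2 cannot be told apart from a share alone. CD4-CD8- cells as a whole made up 72.9%, 29.4% and 68.6% of all cells in OT1 and 47.2%, 9.06% and 17.5% in OT2. They too were highest in NoSelection and lowest in PosSelected under both receptors.

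With each cell thinned to 2000 RNA UMIs and the 143 shallower cells left out (16, 14 and 8 in OT1, 28, 33 and 44 in OT2), the shares were 20%, 7.84% and 9.69% in OT1 and 21.3%, 3.17% and 4.51% in OT2. Thinning removes Cpa3 and S100a6 UMIs as well as Sox13 and Maf UMIs, so these are in part other cells, 69 of 128 being among the 97.

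As a share of CD4-CD8- cells only, Sox13 Maf cells made up 13.9% (NoSelection), 18.1% (PosSelected) and 10.7% (NegSelected) in OT1 mice, and 37.3%, 34.8% and 29.0% in OT2 mice. The 3 OT2 mice were all above the 3 OT1 mice. The means were 33.7% ± 4.22 (SD, n = 3) and 14.2% ± 3.69 (SD, n = 3), a difference of 19.5 points with an exact two-sided permutation p of 0.1, the smallest that 3 against 3 mice allow. Beside this, Cpa3-type cells made up 82 of 223, 26 of 83 and 53 of 140 CD4-CD8- cells in the OT1 mice and 8 of 51, 5 of 23 and 2 of 31 in the OT2 mice. Cells above both limits made up 23.3%, 14.5% and 27.1% in OT1 and 3.92%, 0% and 0% in OT2. Sox13 Maf-zero cells made up 13.9%, 32.5% and 17.9% in OT1 and 37.3%, 34.8% and 58.1% in OT2. Every OT2 mouse was again above every OT1 mouse, so the higher OT2 share was not particular to Sox13 Maf cells. Of all cells, the OT2 and OT1 means of Sox13 Maf cells were 8.61% ± 7.84 and 7.60% ± 2.42 (SD, n = 3 each), a difference of 1.01 points (exact permutation p = 1).

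**Figure D1:**
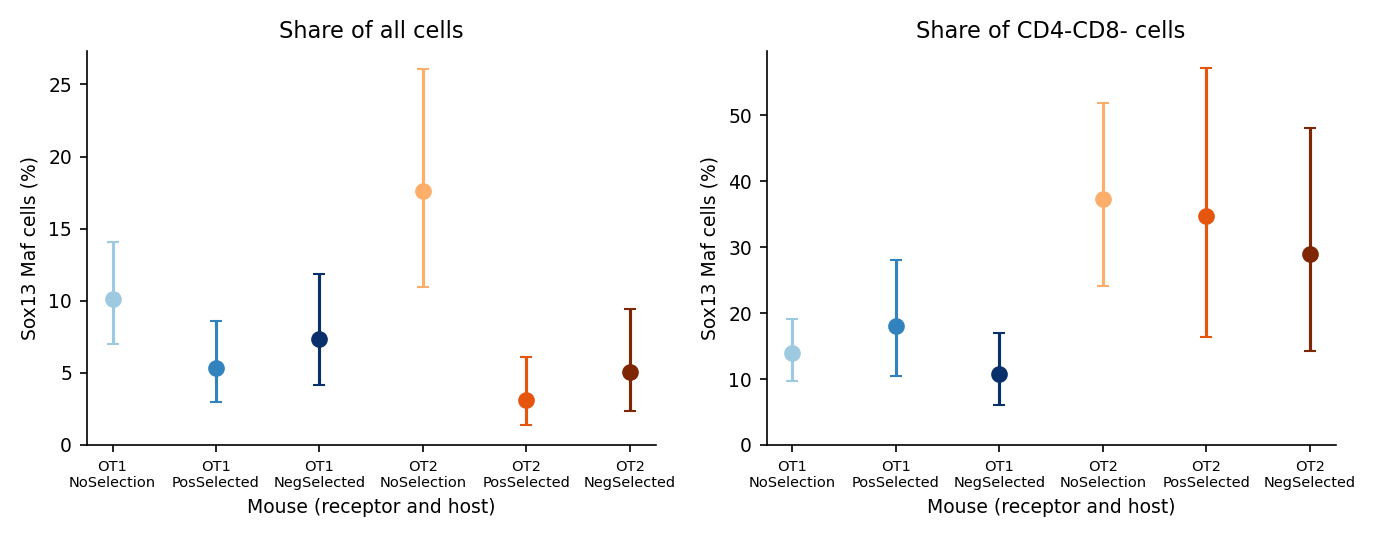
Sox13 Maf cells in each of the 6 mice as a percentage of all cells and of CD4-CD8- cells, with exact 95% intervals for counting error. NoSelection is highest among all cells under both receptors (10.1% and 17.6%), and the 3 OT2 mice lie at 29.0% or above among CD4-CD8- cells, where the 3 OT1 mice lie at 18.1% or below.

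Few cells lay at the antibody limits. The highest CD4 value inside was 5.62 and the lowest outside 7.12, while for CD8A the values were 5.95 inside and 6.14 outside. The RNA limits were closer to the cells, since 13 cells were left out by 1 UMI of the Cpa3 sum and 10 by 1 UMI of the S100a6 sum. Of 346 CD4-CD8- cells with Sox13 or Maf RNA, 154 were Cpa3-type, 17 were S100-type and 78 exceeded both limits. Requiring at least 2 UMIs of Sox13 plus Maf left 73 cells, and limits of 1 or 3 UMIs on both sums gave 76 and 121 cells.

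The rule read Sox13 and Maf, so their levels describe the choice. Sox13 (chromosome 1, 133382300 to 133424459, positions from RefSeq on GRCm38.p6) stood at 362 CPM in OT1 NoSelection, 362 in PosSelected and 383 in NegSelected, and at 407, 716 and 357 CPM in the OT2 mice, in which order values per mouse are given throughout. Maf (chromosome 8, 115703253 to 115706894) stood at 362, 317 and 98.0 CPM in OT1 and 303, 537 and 319 CPM in OT2, with the OT1 NegSelected mouse lowest. Sox13 without Maf was seen in 29 cells, Maf without Sox13 in 20 and both in 48. The sum of the 2 genes was 1 UMI in 24 cells and at least 3 in 59, with a median of 3 and a maximum of 16. Outside the CD4-CD8- cells a Sox13 UMI was rare, in 2.67% of double-positive, 0.65% of CD4+CD8- and 3.89% of CD4-CD8+ cells. A Maf UMI was found in 0 of 187 double-positive cells, and this count of 0 allows at most 1.60%. Cpa3-type cells, which the rule leaves out, had Sox13 in 82.4% and Maf in 56.3% of cells, so these 2 genes do not separate them from Sox13 Maf cells.

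Of the 3 further markers, Myo6, Etv5 and Ankrd6, none was read by the rule itself, but all come from the RNA of the same cells. Etv5 (chromosome 16, 22381313 to 22439570), an ETS-family factor induced downstream of growth factor and receptor signals, had 522, 294 and 446 CPM in OT1 and 659, 869 and 394 CPM in OT2, and a UMI in 64.9% of the cells. The share with an Etv5 UMI was 16.4% in Sox13 Maf-zero, 92.0% in Cpa3-type and 2.14% in double-positive cells. Myo6 (chromosome 9, 80164976 to 80311729), an unconventional myosin that moves toward the minus end of actin filaments, had 327, 56.6 and 258 CPM in OT1 and 1309, 741 and 357 CPM in OT2. All 3 OT2 mice were above all 3 OT1 mice. Myo6 was seen in 35.1% of the cells, 3.13% of Sox13 Maf-zero, 27.8% of Cpa3-type and 2.14% of double-positive cells. Double-positive cells, with a Myo6 UMI in 4 of 187, had 0 to 402 CPM per mouse in OT1 and 0 to 6.72 CPM in OT2. Ankrd6 (chromosome 4, 32804027 to 32950885), an ankyrin-repeat protein of Wnt signalling, had 41.8, 11.3 and 53.5 CPM in OT1 and 147, 128 and 93.8 CPM in OT2. It was seen in 25.8% of the cells against 3.13% in Sox13 Maf-zero, 14.2% in Cpa3-type and 6.95% in double-positive cells. With every cell thinned to 2000 UMIs, Etv5 was seen in 49.4%, Myo6 in 31.5% and Ankrd6 in 12.4% of the Sox13 Maf cells and in 9.48%, 3.45% and 0.862% of the Sox13 Maf-zero cells.

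Myo6 RNA was held by few of the cells. Its 280 UMIs lay in 34 of the 97 cells, none of them among the 24 cells chosen on 1 UMI of Sox13 plus Maf. That sum is what the rule read and the cells are pooled over mice with different Myo6 levels, so no difference between kinds of cells is read from it.

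Against the 128 Sox13 Maf-zero cells, the higher genes included some that are known from interleukin-17-type gamma delta T cells. Levels were summed per mouse, and a log2 ratio was formed with 10 CPM added to each level, in the 4 mice with at least 10 cells of both kinds (the 3 OT1 mice and OT2 NoSelection). Since the rule chose the cells by RNA, the ratios are a description with no test. Of 9009 genes with at least 10 CPM, 37 (0.411%) were at least 2-fold higher and 10 (0.111%) at least 2-fold lower in each of the 4 mice, and nothing is read from these counts. The interleukin-17-type list had 21 genes in the data other than Sox13 and Maf, and 12 of them reached a mean of 10 CPM in either class. Of these 12, 6 were among the higher and 0 among the lower, and Etv5, among the 6, is also a marker of the cells. The list's median log2 ratio was 1.39, against 0.016 over all genes. The classes were split on Sox13 and Maf, which belong to this list, and a gene could be measured through its level in the Sox13 Maf cells alone. The list values therefore describe the split and are no support for a programme. Other markers differed between the classes too, in single mice. Myeloid genes summed to 5.14, 13.2, 0 and 394 CPM in the Sox13 Maf-zero cells of the 4 mice and to 0, 11.3, 17.8 and 0 CPM in the Sox13 Maf cells, so OT2 NoSelection stood apart. Interferon-stimulated genes summed to 632, 400, 2346 and 347 CPM against 710, 554, 258 and 277 CPM, so OT1 NegSelected stood apart. Without any 1 of the 4 mice, 6 to 7 genes of the interleukin-17-type list were higher in each mouse left.

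Blk (chromosome 14, 63372837 to 63417187), a Src-family kinase needed for interleukin-17-type gamma delta T cells, had 216, 136 and 160 CPM in the OT1 mice and 303 CPM in OT2 NoSelection. The Sox13 Maf-zero cells of the same mice had 15.4, 8.80, 6.78 and 7.88 CPM, so the ranges do not overlap, and the mean log2 ratio was 3.40 ± 0.52 (SD, n = 4). The scavenger receptor family gene 5830411N06Rik, a marker of interleukin-17-type gamma delta T cells, had 1421, 1539, 829 and 789 CPM against 360, 145, 251 and 78.8 CPM (2.53 ± 0.83). Its relative Cd163l1 had 139, 147, 205 and 34.7 CPM against 61.6, 35.2, 61.0 and 0 CPM (1.65 ± 0.46). Etv5 had a ratio of 3.79 ± 1.28, from 32.1 CPM on average in Sox13 Maf-zero cells, and Rora, an orphan nuclear receptor, one of 2.18 ± 1.21. The end products of this programme were not seen. Il17a, Il17f, Il23r and Ccr6 had 0 UMIs in all 97 cells, as did Zbtb16, the factor of innate-like T cells. A count of 0 among the cells allows a share with a UMI of up to 3.09%.

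Other genes stood higher in the same comparison. Myo6 had a mean of 488 CPM against 14.0 CPM in Sox13 Maf-zero cells, a ratio of 3.78 ± 1.94, lowest in OT1 PosSelected at 1.52. Gata3, a factor of early T lineage and CD4 cells, had 230, 215, 223 and 459 CPM against 87.3, 88.0, 102 and 110 CPM (1.38 ± 0.40). Several of the most even ratios belonged to genes outside the lists. Genes outside the lists were ranked by their smallest ratio over the mice, which favours even ratios. Slc9a9, an endosomal sodium proton exchanger, had 1574, 1312, 1560 and 1352 CPM against 493, 365, 414 and 386 CPM (1.79 ± 0.10). Crip1, a LIM-domain protein, had 3921, 3213, 3137 and 2487 CPM against 1037, 712, 895 and 646 CPM (1.95 ± 0.15). Lpar6, a lysophosphatidic acid receptor, had a ratio of 1.54 ± 0.07, Smo, the Hedgehog signal transducer, 1.75 ± 0.31, Igf1r, the receptor of insulin-like growth factor, 2.26 ± 0.92, and Gfra1, a co-receptor of glial-derived neurotrophic factor, 2.75 ± 1.41. Sox4, an HMG-box factor of the same family as Sox13, had a ratio of 1.12 ± 0.19 but did not reach 2-fold in each mouse. When mice with at least 5 cells of both kinds were used, which takes in all 6, 18 of the 37 genes kept a 2-fold difference in each mouse, among them Myo6, Etv5, Blk, 5830411N06Rik, Crip1, Slc9a9, Igf1r, Smo, Gfra1 and Rora. Gata3, Cd163l1 and Lpar6 did not. The 8 Sox13 Maf-zero cells of OT2 PosSelected that enter here stood apart, with 1061 antibody CPM (counts per 1000000 antibody UMIs) of CD24 against 6722 to 15429 in the other mice.

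The 10 lower genes included Kpna2, an importin, with a mean of 10.9 CPM against 94.8 CPM, Aurkb, a mitotic kinase, with a log2 ratio of -1.88 ± 0.57, and Cd160, a receptor of cytotoxic and innate-like lymphocytes, with 6.62 against 42.7 CPM. These rest on few UMIs, 5, 2 and 3 in the Sox13 Maf cells. The cell cycle list had 0 of 14 genes higher or lower in each mouse, with 11 of 14 ratios below 0. The receptor-signal list, which holds genes such as Egr1 and Nr4a1 that receptor engagement induces, also had 0 of 17, with 13 ratios below 0 and a median of -0.44. Of 7 genes of the interferon-gamma-type gamma delta list 0 were higher or lower in each mouse, with 5 ratios below 0 and a median of -0.75. Gzma, a granzyme and 1 of the 2 with a ratio above 0, stood at 2312, 1595, 1756 and 1976 CPM against 272, 924, 292 and 55.2 CPM, with a ratio of 2.83 ± 1.71. Its level varied more among the Sox13 Maf-zero cells than among the Sox13 Maf cells. The constant genes of the gamma and delta chains all had ratios above 0, from 0.52 ± 0.37 for Trdc to 1.45 ± 0.98 for Trgc1. The alpha constant gene Trac had one of -0.77 ± 0.33.

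Against Cpa3-type cells, the difference lay elsewhere and the interleukin-17-type list did not separate the 2 classes. This comparison used the 3 OT1 mice. Of 8922 genes 23 (0.258%) were at least 2-fold higher and 36 (0.403%) at least 2-fold lower in each mouse, and the interleukin-17-type list had 0 of 12 in either direction with a median of -0.46. Within that list Etv5 was lower in 3 of 3 mice (522, 294 and 446 CPM against 882, 636 and 813 CPM, log2 ratio -0.90 ± 0.17), and so was Blk (-1.03 ± 0.26). 5830411N06Rik was higher in 3 of 3 (0.67 ± 0.27). The list thus held genes on both sides of 0 in every mouse.

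The gamma and delta constant genes were lower than in Cpa3-type cells. Trgc1 had 488, 204 and 365 CPM against 803, 466 and 961 CPM (-1.08 ± 0.34), and Trdc 1003, 803 and 802 CPM against 1123, 1124 and 1052 CPM (-0.34 ± 0.16). Lyl1 and Hhex, factors of early thymic progenitors, had 0 UMIs in the Sox13 Maf cells and 32 and 23 UMIs in Cpa3-type cells, at means of 28.2 and 23.9 CPM. They were the 2 lower genes among 15 measured of the Notch and early double-negative list, of which 0 were higher. The list as a whole went the other way, with 9 of 15 ratios above 0, a median of 0.12 and a sum of 4026, 4537 and 4518 CPM against 3484, 3885 and 3965 CPM. Angpt1, which encodes angiopoietin, had 27.9, 22.6 and 8.91 CPM against 151, 122 and 132 CPM (-2.34 ± 0.50), and Coro2a, a coronin, a ratio of -1.95 ± 0.36. Higher genes included Cd8a, with 13.9, 181 and 44.6 CPM against 0, 47.7 and 2.65 CPM (1.70 ± 0.43), although the cells were chosen for low CD8A antibody. Ppm1e, a phosphatase, had 132, 79.2 and 62.4 CPM against 38.3, 21.2 and 23.8 CPM (1.39 ± 0.26), and Nebl, an actin-binding protein, 83.6, 67.9 and 71.3 CPM against 27.0, 21.2 and 21.2 CPM (1.35 ± 0.03). In the 3 mice Ppm1e had 33 against 30 UMIs and Nebl 26 against 24. With so few UMIs, and genes ranked by their smallest ratio over the mice, the SD of 0.03 is no measure of precision. With at least 5 cells of both kinds, in 5 mice, Cd8a, Nebl, Ppm1e and Tubb2b kept a 2-fold difference in each mouse, and none of the 36 lower genes did. Only OT1 NoSelection had at least 10 S100-type cells, and with 1 mouse the genes of that comparison are not described.

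**Figure D2:**
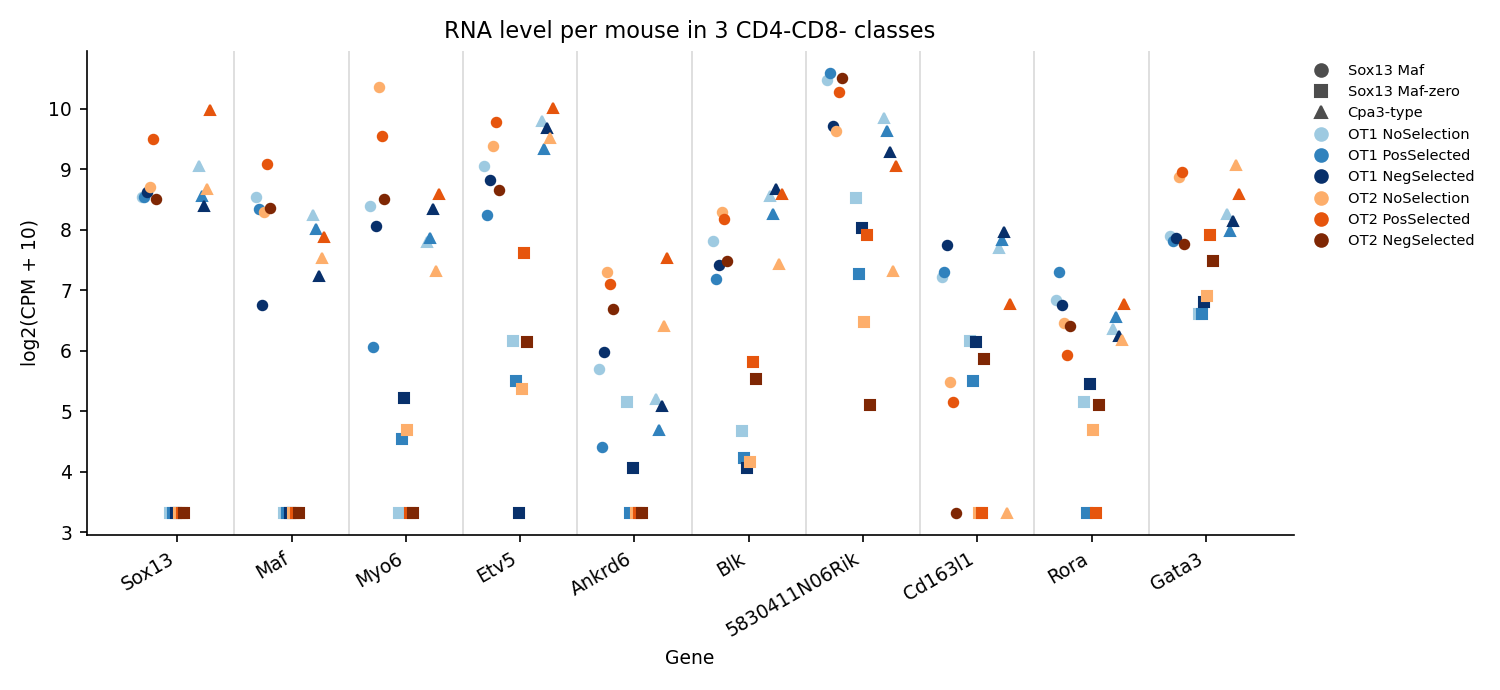
RNA levels per mouse (points) as log2 of CPM plus 10 of marker and interleukin-17-type genes and Gata3 in Sox13 Maf, Sox13 Maf-zero and Cpa3-type cells, for each mouse with at least 5 cells of the class. Blk and Etv5 lie above the Sox13 Maf-zero cells (Blk 136 to 303 against 6.78 to 15.4 CPM in the 4 mice compared). In each of the 3 OT1 mice both lie below the Cpa3-type cells of the same mouse (Blk 297 to 397 CPM in these). The Blk level of 303 CPM, in OT2 NoSelection, lies within that range. The Etv5 levels of OT2 NoSelection and OT2 PosSelected also lie within the range of the OT1 Cpa3-type cells.

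Antibodies other than CD4 and CD8A entered the rule only through the antibody total of each cell, to which CD4 and CD8A were scaled. A high count of 1 antibody therefore lowers the scaled CD4 and CD8A values of a cell. In 1 Sox13 Maf cell of OT2 NegSelected the integrin chain CD49F had 9861 UMIs, where the median antibody total of all cells was 4457. The part of this in the comparisons was not tested. Antibody counts were summed per mouse and class and tested with the mouse as a block in edgeR's quasi-likelihood test. Against Sox13 Maf-zero cells 0 of 111 antibodies (0%) passed a Benjamini-Hochberg adjusted p of 0.05 in the 4 mice, 11 had an unadjusted p under 0.05, and DESeq2 called 10. CD62L, a homing receptor, had 128599, 100902, 100797 and 62344 antibody CPM against 97555, 52702, 65554 and 23285, higher in 4 of 4 mice, at a log2 difference of 1.00 ± 0.24 (SE, edgeR adjusted p = 0.256). CD45RB, an isoform of the phosphatase CD45, had 7086, 9096, 9407 and 10466 against 12714, 33275, 11902 and 47776, lower in 4 of 4 (-1.16 ± 0.37, edgeR adjusted p = 0.328). CD8B, the partner chain of CD8A, was lower in 4 of 4 (-0.82 ± 0.16, edgeR adjusted p = 0.256), in cells chosen for low CD8A in both classes. THY1.2, the pan-T cell antigen, was higher in 4 of 4 (0.76 ± 0.25, edgeR adjusted p = 0.328). Directions were the same in every mouse for these 4, but none passed the adjustment. TCRGD differed by 0.23 (edgeR adjusted p = 0.46), and CD24, which falls as thymocytes mature, by 0.34 with 3 of 4 mice higher.

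Against Cpa3-type cells in the 3 OT1 mice 0 of 112 antibodies (0%) passed, 21 had an unadjusted p under 0.05, and DESeq2 called 13. Without OT1 NoSelection edgeR called 12 and without OT1 NegSelected 11, so the count of 0 rests on those mice, and with antibody counts of a cell capped at the 99th percentile it called 21. The integrin chain CD49D had 3781, 3663 and 5662 antibody CPM against 7537, 10980 and 11371 (-1.26 ± 0.18, edgeR adjusted p = 0.083). CD5, an inhibitor of receptor signalling whose level follows its strength, had 25573, 22194 and 46875 against 50642, 55022 and 68274 (-1.01 ± 0.20, edgeR adjusted p = 0.151). Both were lower in 3 of 3 mice, with no overlap for CD5 or CD49D, and neither passed. The median CD5 of single cells on the scaled log2 scale was 6.61 in Sox13 Maf cells, 7.19 in Sox13 Maf-zero, 7.59 in Cpa3-type and 8.38 in double-positive cells. The receptor of interleukin 4, CD124, was higher in 3 of 3 (0.65 ± 0.14, edgeR adjusted p = 0.151), and KIT, the receptor of stem cell factor, lower in 3 of 3 (-0.40 ± 0.11, edgeR adjusted p = 0.182).

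**Figure D3:**
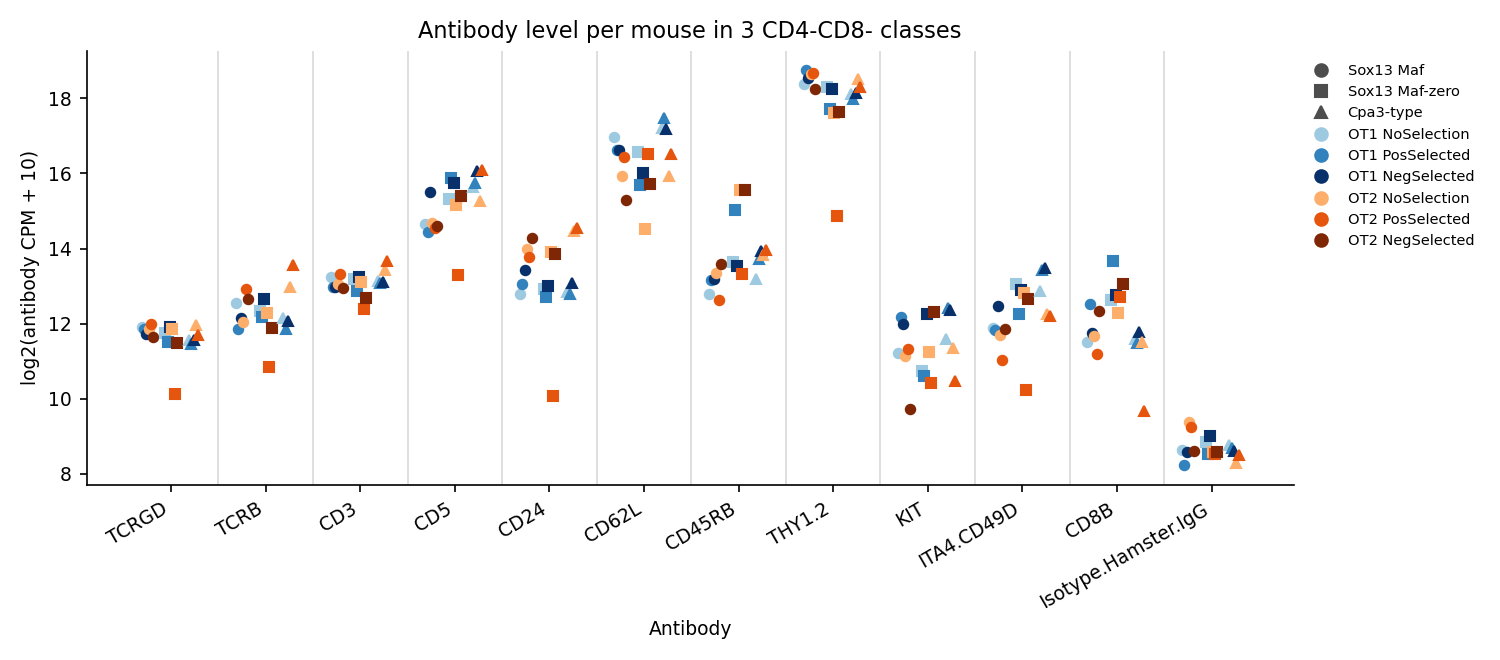
Antibody levels per mouse (points) as log2 of antibody CPM plus 10 in Sox13 Maf, Sox13 Maf-zero and Cpa3-type cells, for each mouse with at least 5 cells of the class. CD5 is lower in Sox13 Maf than in Cpa3-type cells of all 3 OT1 mice (22194 to 46875 against 50642 to 68274 antibody CPM), while the TCRGD levels of the classes overlap.

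The 2 receptors were compared within the Sox13 Maf cells. With at least 10 cells per mouse only 4 mice remained and no residual degrees of freedom, so the test used all 6 mice, which have at least 5 cells each, with terms for receptor and host. These sums rest on 8 and 9 cells in the OT2 PosSelected and NegSelected mice. Of 2404 genes 18 (0.749%) passed an edgeR adjusted p of 0.05 for OT2 minus OT1, 13 higher and 5 lower, 149 had an unadjusted p under 0.05, and DESeq2 called 8. Leaving out OT1 PosSelected left 3 calls and leaving out OT2 PosSelected 6, while 12 to 25 were left without any 1 of the other 4 mice. Trbv12-2, Xist and Trgv2 were called in all 11 alternatives tried.

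The leading genes were receptor segments. Trgv2, a gamma chain variable segment, had 27.9, 67.9 and 8.91 CPM in OT1 and 728, 1278 and 920 CPM in OT2, a log2 difference of 4.81 ± 0.42 (SE, edgeR adjusted p = 3.8e-27). Trgv4 had 6.97, 0 and 0 CPM in OT1 and 355, 486 and 206 CPM in OT2 (6.32 ± 0.66, edgeR adjusted p = 7.7e-19). At the level of cells, 31 of 36 OT2 and 5 of 61 OT1 Sox13 Maf cells had a UMI of either segment. The difference was not particular to these cells, since 15 of 15 OT2 and 18 of 161 OT1 Cpa3-type cells and 27 of 45 OT2 and 13 of 83 OT1 Sox13 Maf-zero cells had one, against 1 of 140 and 0 of 47 double-positive cells. The gamma chain antibody TCRVG2 had 857, 703 and 745 antibody CPM in OT1 and 806, 774 and 541 in OT2. It was near its floor, with a median of 2 UMIs per Sox13 Maf cell. Its scaled log2 median was 2.14, against 2.02 in double-positive cells, so it cannot decide whether the chain differed. Which gene segment it reads was not checked. Trac was higher in OT2 (62.7, 102 and 151 CPM against 650, 639 and 788 CPM, 2.75 ± 0.36), as it was in double-positive cells (302 to 353 against 4883 to 5743 CPM). Trbv12-2 (8.18 ± 0.52), Rnf43 (6.48 ± 0.65) and Xist (8.82 ± 0.72) were higher in OT2 in double-positive cells too. Trbv12-2 and Trbv12-1 are near-identical segments, and how reads were shared between them is uncertain. Xist, the RNA of the inactive X chromosome, had 4.82, 2.15 and 0.783 CPM over all cells of the OT1 mice and 483, 365 and 507 CPM in the OT2 mice, and all mice are labelled female. Of the Y-linked genes Ddx3y, Eif2s3y and Uty were at 0 UMIs in all mice, and Kdm5d had 2 UMIs, in 2 of 254 cells of OT2 PosSelected. The part of this difference between the OT1 and OT2 mice in the other calls was not tested.

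Among genes that are not receptor segments, Klf2, a factor of egress and quiescence, was lower in OT2, at 425, 385 and 232 CPM against 69.3, 51.1 and 75.1 CPM (-2.39 ± 0.44, edgeR adjusted p = 1.6e-05). Cpa3-type cells ranged from 266 to 376 CPM of Klf2 in OT1 and from 52.7 to 338 CPM in OT2, which overlap. Cd163l1 was lower, at 139, 147 and 205 CPM against 34.7, 25.6 and 0 CPM (-2.71 ± 0.61, edgeR adjusted p = 0.00199). This was also seen in Cpa3-type cells, at 198 to 238 CPM in OT1 and 0 to 99.9 CPM in OT2. Sox13 Maf-zero cells overlapped, at 35.2 to 61.6 CPM against 0 to 48.5 CPM. Myo6 was higher in OT2 (1.85 ± 0.34, edgeR adjusted p = 1.9e-05), while Cpa3-type cells overlapped, at 214 to 315 CPM in OT1 and 0 to 375 CPM in OT2. In Sox13 Maf cells the levels of these 3 genes did not overlap between receptors, but the genes were named because they were called on the same values. For Myo6 the gap was small, with 327 CPM the highest in OT1 and 357 CPM the lowest in OT2. Klf2, Cd163l1 and Myo6 each lost the call without OT1 PosSelected and without OT2 PosSelected, and in DESeq2, and Cd163l1 also without OT1 NegSelected or OT2 NegSelected. Myo6 is 1 of the 3 markers not read by the rule, and neither Etv5 nor Ankrd6 was called.

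**Figure D4:**
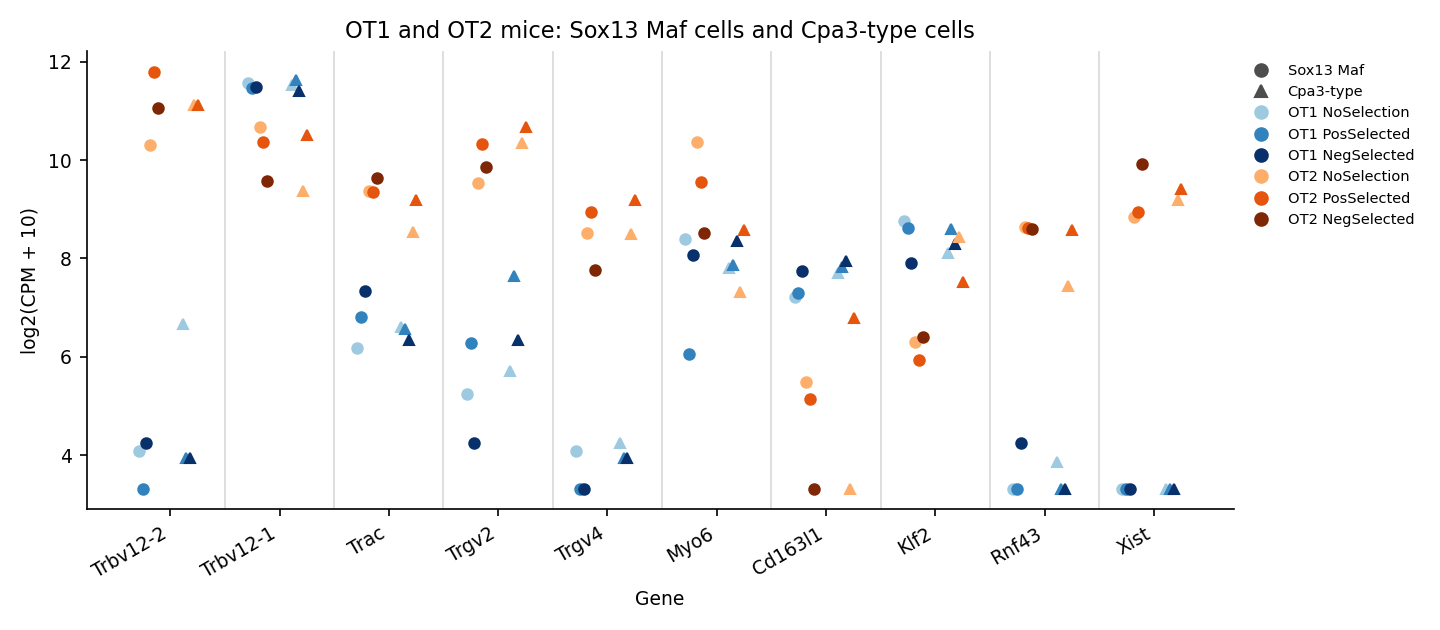
RNA levels per mouse as log2 of CPM plus 10 of genes compared between OT1 and OT2, in Sox13 Maf cells (circles) and Cpa3-type cells (triangles, mice with at least 5 such cells). In Sox13 Maf cells Trgv2 (8.91 to 67.9 against 728 to 1278 CPM) and Klf2 (232 to 425 against 51.1 to 75.1 CPM) do not overlap between the receptors.

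No antibody differed between receptors at an edgeR adjusted p of 0.05 (0 of 110, 0%). Of 110 antibodies 18 had an unadjusted p under 0.05, and DESeq2 called 4. Without OT2 NoSelection edgeR called 15, without OT1 NoSelection 0, and without any 1 of the others 6 to 8. The integrin chain ITB7 had 28078, 11012 and 22737 antibody CPM in OT1 and 2983, 3943 and 3653 in OT2 without overlap (-2.41, edgeR adjusted p = 0.0767), and CD24 a difference of 0.97 (edgeR adjusted p = 0.13). The ITB7 difference was not particular to these cells. In Cpa3-type cells ITB7 held 2.14%, 2.09% and 4.04% of antibody UMIs in OT1 and 0.71%, 0.40% and 0.14% in OT2. The OT2 values there rest on 8, 5 and 2 cells. In Sox13 Maf-zero cells the receptors overlapped, at 3.75%, 0.62% and 3.24% against 1.07%, 0.19% and 4.63%. ITB7 passed in DESeq2, without any 1 mouse other than OT1 NoSelection, and with antibody counts of a cell capped at the 99th percentile (edgeR adjusted p = 0.0488), where 5 antibodies were called. The integrin chain CD49F had 3495, 2523 and 3550 antibody CPM in OT1 and 12191, 8361 and 230015 in OT2, a difference of 3.0 (edgeR adjusted p = 0.282). The OT2 NegSelected mouse stood apart, as CD49F took 22.9% of the antibody UMIs of its 9 cells, and 1 cell held 96.7% of these CD49F UMIs. Without that mouse the difference was 1.73 (edgeR adjusted p = 0.00293). Among the Sox13 Maf-zero cells CD49F also ran high, at 161509 antibody CPM in OT2 NoSelection.

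Hosts were compared within the Sox13 Maf cells with 2 mice per host and 2 residual degrees of freedom, so a gene that missed the threshold is not shown to be alike between hosts. PosSelected minus NoSelection had 0 of 2404 genes (0%) past the edgeR threshold, 85 at an unadjusted p under 0.05 and 0 in DESeq2. NegSelected minus NoSelection had 2 (0.0832%), both linker histone genes. H1f2 had 83.6, 102 and 437 CPM in OT1 and 43.3, 51.1 and 169 CPM in OT2, highest in NegSelected under both receptors (2.23), and H1f5 differed by 2.94. NegSelected minus PosSelected had 2 (0.0832%), the chaperone Hsp90aa1 (1.89) and the small nuclear RNA Rn7sk (1.75). DESeq2 called 0 genes in each of these, and both counts of 2 fell to 0 without OT1 PosSelected, OT2 PosSelected or OT2 NegSelected, with that for NegSelected minus NoSelection also 0 without OT1 NoSelection. No antibody was called between hosts (0 of 110 in each of 3 comparisons, 0%). These had 2, 7 and 3 at an unadjusted p under 0.05, in the order PosSelected minus NoSelection, NegSelected minus PosSelected and NegSelected minus NoSelection, and DESeq2 called 0, 1 and 1. Leaving out OT2 NoSelection gave 4, 4 and 5 calls in the same order.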

How the data were processed

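Single-cell RNA and antibody libraries of 6 mice (18 samples with the receptor libraries, which were not analysed here) were used. The submitters' processing notes name mm10, Cell Ranger 8.0.1 and Seurat without a version. The authors deposited RNA and antibody UMI counts per cell without normalization, per the file contents, for 55494 genes and 180 antibody names (127 with a count). How hashtags were assigned and how cells and doublets were filtered is not given in the sources used here, and no doublets were removed here.

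Each cell was tied to its mouse by its hashtag number. The members, limits and 25 gene lists were chosen with earlier results of these data known. Counts were summed per mouse and class. Intervals are exact Clopper-Pearson for shares, Newcombe for their differences and exact Poisson for CPM, all at 95% and for counting error only, and a count of 0 allows 3 counts. Two-sided tests were made with edgeR 4.0.16 (quasi-likelihood, TMM, filterByExpr, limma 3.58.1, R 4.3.3), adjusted by Benjamini-Hochberg over all genes or antibodies tested, with the mouse as a block between classes of the same mice, and receptor and host terms within the Sox13 Maf cells. The planned minimum of 10 members left 4 mice and no residual degrees of freedom there, so a minimum of 5 members was used, which had been listed as another setting. The 6 mice then leave 2 residual degrees of freedom. Cells of both classes in a comparison come from the same mice, which is the pairing. DESeq2 1.42.0 was an alternative. RNA ratios between classes used log2 of CPM plus 10, genes with a mean of at least 10 CPM in either class, and no test. The scripts were tested on simulated counts. Python 3.11.15, numpy 2.4.6, scipy 1.17.1, pandas 2.3.3 and matplotlib 3.10.9 were used.

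Named were the 5 markers, list members on which a sentence turns, up to 12 higher and 8 lower genes per class comparison with at least 50 CPM, ranked by the smallest ratio over the mice, up to 8 called genes per direction by fold for receptor and host (or the 6 lowest p), called antibodies and a preset antibody set. Which of these to print was chosen with their values in view, and so were ITB7 and CD49F, which the rule does not name. Positions come from RefSeq on GRCm38.p6. Some genes of the lists are counted but not reported here by name.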

Additional observations from a re-analysis of the deposited data

Results flagged for a closer look

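In each of 53 groups of 4 mice the gap of the highest or lowest log2 ratio of Sox13 Maf to Sox13 Maf-zero cells was compared with the range of the group, and 2 lay beyond the 95% critical value, where chance gives about 1 in 20. The CD44 antibody had a log2 ratio of -1.57 in OT1 PosSelected and of -0.12 to 0.09 in the other 3 mice, with 7842 antibody CPM (counts per 1000000 antibody UMIs) in the Sox13 Maf-zero cells of OT1 PosSelected and 2455 to 2798 in those of the others. Zbtb16 had a ratio of -4.71 in OT2 NoSelection and 0 in the other 3, since 252 CPM were found in the Sox13 Maf-zero cells of that mouse and 0 UMIs in all other sums compared.

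From NoSelection to PosSelected the share of Sox13 Maf cells among CD4-CD8- cells went opposite ways in OT1 and OT2. It changed by 4.17 points in OT1 (Newcombe interval -4.36 to 14.6) and by -2.47 points in OT2 (-23.5 to 21.1). Both changes were within counting error, and OT2 minus OT1 was -6.64 points. Each rests on 1 mouse per receptor and host, and the difference was not tested.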

How the results depend on the processing

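All alternatives were planned except the capping of antibody counts between receptors and hosts, which was added after seeing the data. Of 63 values of shares under these, 56 moved by less than their interval or the spread of mice. The OT1 NoSelection share was 5.56% with limits of 1 UMI on the S100 and Cpa3 sums, 14.4% with limits of 3, and 20% with cells thinned to 2000 UMIs. With Maf alone the OT1 PosSelected and NegSelected shares were 2.84% and 3.43%. The mean share in OT2 minus OT1 reversed to -0.92 points with limits of 3 and to -2.87 points with thinning.

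The counts of 37 higher and 10 lower genes against Sox13 Maf-zero cells were 60 and 36 with 5 CPM added, 59 and 47 with at least 2 UMIs of Sox13 plus Maf, 67 and 56 with thinning, 18 and 1 with a minimum of 5 cells, and 1257 and 933 with a minimum of 20 cells, which leaves 1 mouse. With 20 CPM added 3 genes were lower. Leaving out 1 mouse gave 69 to 88 and 31 to 46. Against Cpa3-type cells 23 higher and 36 lower genes became 44 and 81 with 5 CPM, 9 and 6 with 20 CPM, 71 and 152 with thinning, 4 and 0 with a minimum of 5 cells and 651 and 592 with a minimum of 20. At least 2 UMIs gave 78 lower genes, and leaving out 1 mouse 64 to 132 and 109 to 236. These counts move with the number of mice by construction, since each gene must pass in every mouse. Of the interleukin-17-type list 4 to 9 genes were higher than in Sox13 Maf-zero cells over the alternatives (6 to 7 leaving out 1 mouse). Against Cpa3-type cells it was 1 gene with at least 2 UMIs and 0 to 1 leaving out 1 mouse.

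Antibodies called against Sox13 Maf-zero cells were 10 in DESeq2 and 0 to 0 leaving out 1 mouse. Against Cpa3-type cells they were 13 in DESeq2, 1 with at least 2 UMIs, 2 with a minimum of 5 cells, 21 with counts capped at the 99th percentile and 0 to 12 leaving out 1 mouse. Without the replicate block on the mouse 0 antibodies were called in both comparisons, so the block changed no call. For OT2 minus OT1 the 18 genes (13 higher, 5 lower) were 8 (7 and 1) in DESeq2 and 3 to 25 (3 to 13 and 0 to 12) leaving out 1 mouse, with 3 lower at 2 UMIs. PosSelected minus NoSelection had 1 gene with no filter on low counts and 0 to 3 leaving out 1 mouse. NegSelected minus PosSelected and NegSelected minus NoSelection each had 0 in DESeq2, 0 with no filter, 0 with at least 2 UMIs and 0 to 2 leaving out 1 mouse. Antibodies for OT2 minus OT1 were 4 in DESeq2, 13 with at least 2 UMIs, 3 with the receptor term alone, 5 with counts capped at the 99th percentile and 0 to 15 leaving out 1 mouse. The host comparisons had 0 to 4, 0 to 4 and 0 to 5 leaving out 1 mouse, and DESeq2 called 1 in NegSelected minus PosSelected and 1 in NegSelected minus NoSelection. The cause of these changes was not tested.

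Some antibody differences that passed no test changed sign. Against Sox13 Maf-zero cells TCRB became 0.37 with a minimum of 5 cells, CD103 -0.057 with at least 2 UMIs, and CD122 -0.010 with a minimum of 5 cells and -0.0090 with capped counts. Leaving out 1 mouse gave -0.18 to 0.047 for TCRB, -0.38 to 0.14 for CD44 (above 0 without OT1 PosSelected), -0.20 to 0.055 for CD69, -0.11 to 0.35 for CD103, -0.024 to 0.058 for CD122 and -0.70 to 0.25 for CD127 (above 0 without OT1 PosSelected). Against Cpa3-type cells CD24 became -0.15 and TCRB -0.23 with a minimum of 5 cells, and CD127 -0.18 with at least 2 UMIs. Leaving out 1 mouse gave -0.0068 to 0.19 for TCRB, -0.098 to 0.46 for CD8B and -0.00018 to 0.13 for CD69. Planned fits with at least 10 members for receptor and host, and antibody tests against S100-type cells, gave no value. Depth limits single cells: 24 of the 97 were chosen on 1 UMI.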

Other observations

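The OT2 cells carried RNA assigned to both Vbeta5 segments. A Trbv12-1 UMI was found in 20 of 36 OT2 Sox13 Maf cells, of which 12 had no Trbv12-2 UMI, while 14 had Trbv12-2 without Trbv12-1, 8 had both and 2 neither. Trbv12-1 was also seen in 8 of 15 OT2 Cpa3-type and 3 of 7 OT2 S100-type cells, against 4 of 45 OT2 Sox13 Maf-zero and 11 of 140 OT2 double-positive cells. Of the 12 cells, 10 also had a UMI of Xist, which was at 0 UMIs in the OT1 Sox13 Maf cells. In OT1, 58 of 61 Sox13 Maf cells had Trbv12-1 and 0 had Trbv12-2 alone. The 2 segments are near-identical, and the sharing of reads between them was not tested.

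Dntt, the terminal transferase of early thymocytes, stood at 377 CPM over the Sox13 Maf cells as a whole. Of the genes of receptor rearrangement Rag1 was at 0 UMIs and Rag2 had 1 UMI in 1 cell, and Ptcra, which encodes the pre-receptor alpha chain, was at 0.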
